A study of Mus musculus with 4 samples.

Results

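Transgelins and calponins are small proteins that bind actin filaments and share a calponin homology domain, and the mouse genome holds 3 genes of each kind. Of the 18169 rows in the expression table of Chd5-deficient and control neural stem/progenitor cells (NSCs), 6 carry the names of this family: Tagln, Tagln2 and Tagln3 for the transgelins, and Cnn1, Cnn2 and Cnn3 for the calponins. Tagln3 was chosen by its TPM, which was far above that of controls in Chd5-/- NSCs, so its difference between genotypes is described here without a test. The other 5 genes were taken as its paralogs. A mean of at least 1 TPM (a level scaled to transcript length and to the total of the sample) was reached by 12576 rows of the table and by 4 of the 6 family members, Tagln2, Tagln3, Cnn2 and Cnn3.

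Transgelins carry a single calponin homology domain and a short calponin-like repeat, and they bundle and stabilise actin filaments. Tagln is a classic marker of smooth muscle, Tagln2 is made in many cell types, and Tagln3 is known chiefly as a neuronal protein. Calponins bind actin, tropomyosin and calmodulin and dampen actomyosin ATPase activity. Cnn1 is the smooth muscle form, Cnn2 occurs in many non-muscle cells, and Cnn3, the acidic calponin, is found in neurons and glia.

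RNA was sequenced from 4 primary NSC cultures of C57BL/6 mice, 2 of them wild-type (+/+) and 2 Chd5-/-. Chd5 is a chromatin remodeler, and the mutant cells came from a Chd5-deficient mouse line. Each culture was started from the tissue around the ventricles, with the ventricular and subventricular zones, of a single newborn, and all were kept in proliferation medium with 20 ng/ml EGF and with FGF2. Libraries of mRNA were stranded. The growth protocol gives postnatal day 1 for every culture, but the age entries of the samples give days 1 and 2 for +/+ and days 3 and 4 for Chd5-/-, and by those entries age and genotype cannot be told apart. The values are TPM, which keep no read numbers, so sequencing depth is unknown and the error of a value rests on 2 samples per genotype. Chd5 itself measured 0.39 and 0.37 TPM in +/+ NSCs and 0.06 and 0.04 TPM in Chd5-/- NSCs. It was lower in both mutants, at levels below the minimum for testing. The NSC markers Nes, Sox2, Vim and Fabp7 were present in all 4 samples, the lowest of these values being 60.88 TPM for Nes in Chd5-/- replicate 2. Other NSC genes were low in some samples. Prom1 measured 0.99 and 4.15 TPM in +/+ NSCs and 45.27 and 3.20 TPM in Chd5-/- NSCs. Hes5 measured 8.52 and 3.13 TPM in +/+ NSCs and 1.16 and 43.69 TPM in Chd5-/- NSCs.

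In GENCODE M21 of GRCm38, Tagln3 lies on chromosome 16 from 45711230 to 45724608 on the minus strand, with 1 annotated transcript of 1240 bases. Tagln2 lies on chromosome 1 from 172500047 to 172507380 on the plus strand, and Tagln on chromosome 9 from 45929619 to 45936058 on the minus strand. Cnn1 lies on chromosome 9 from 22099216 to 22109630, Cnn2 on chromosome 10 from 79988584 to 79996062 and Cnn3 on chromosome 3 from 121426497 to 121458207, each on the plus strand. The family is thus spread over 5 chromosomes, and its 2 genes on chromosome 9 are not neighbours. The coding sequences specify 201 residues for Tagln, 199 each for Tagln2 and Tagln3, 297 for Cnn1, 305 for Cnn2 and 330 for Cnn3. The coding sequence of Tagln3 matched that of Tagln at 72.0% and that of Tagln2 at 71.0% of aligned bases, against 60.8% to 65.7% for the calponins. The longest identical stretch between Tagln3 and any other member was 17 bases. Shared words of 31 bases were counted on the same strand only, and low-complexity words, made up almost wholly of the same bases, were left out. Tagln3, Tagln2, Tagln and Cnn1 shared fewer than 20 such words with the transcripts of any other annotated gene. Cnn3 shared 11.5% of its words with the processed pseudogene Gm4815 and 11.4% with Gm17936, so a part of its reads could be divided among these copies. Cnn2 shared 1.1% with AC016791.2.

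The promoters of Tagln3, whose value differed most, of its paralog Tagln2 and of Cnn2 are printed to show what the DNA at these starts looks like. Each runs from 250 bases before to 50 bases after the RefSeq transcription start on GRCm38.p6, 5′ to 3′ on the strand of the gene, with CpG dinucleotides in capitals. The Tagln3 stretch is chr16:45724482-45724781 on the minus strand, the Tagln2 stretch chr1:172499996-172500295 on the plus strand, and the Cnn2 stretch chr10:79988350-79988649 on the plus strand.
Tagln3: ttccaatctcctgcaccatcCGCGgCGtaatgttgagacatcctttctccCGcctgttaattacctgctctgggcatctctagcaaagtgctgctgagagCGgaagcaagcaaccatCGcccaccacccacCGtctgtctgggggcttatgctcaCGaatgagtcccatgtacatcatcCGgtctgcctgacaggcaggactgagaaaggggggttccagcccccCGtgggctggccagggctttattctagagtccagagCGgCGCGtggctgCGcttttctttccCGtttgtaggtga
Tagln2: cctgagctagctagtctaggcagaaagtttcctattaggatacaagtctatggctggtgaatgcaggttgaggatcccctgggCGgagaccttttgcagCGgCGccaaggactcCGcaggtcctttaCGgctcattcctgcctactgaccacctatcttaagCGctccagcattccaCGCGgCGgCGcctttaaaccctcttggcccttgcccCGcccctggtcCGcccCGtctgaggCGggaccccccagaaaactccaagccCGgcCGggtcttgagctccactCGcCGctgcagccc
Cnn2: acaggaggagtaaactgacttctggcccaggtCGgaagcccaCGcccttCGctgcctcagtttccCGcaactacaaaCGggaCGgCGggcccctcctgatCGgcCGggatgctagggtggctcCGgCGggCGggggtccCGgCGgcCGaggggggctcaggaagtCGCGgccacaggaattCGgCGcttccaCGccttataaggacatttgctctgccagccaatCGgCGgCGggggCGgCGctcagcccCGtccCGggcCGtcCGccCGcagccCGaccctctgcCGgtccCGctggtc
The Tagln3 promoter held 15 CpGs and the Tagln2 promoter 18, against a median of 7 over 32851 RefSeq promoters of the same length. Cnn2 and Cnn3 each held 33 CpGs, a number that 92.3% of promoters did not exceed, and Cnn1 held 6. The GC content was 57.3% for Tagln3, 61.3% for Tagln2, 59.3% for Cnn1, 70.7% for Cnn2 and 78.3% for Cnn3. A CArG box, the sequence bound by serum response factor in many smooth muscle promoters, was searched on both strands. Of the 5 members with an entry, only Cnn2 had a match, CCTTATAAGG, whose first base lies 56 bases upstream of the start. In the promoter set 1.63% had such a match. The letters TATAAA, searched on both strands, occurred in 13.6% of promoters and in none of these 5. Tagln had no entry.

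Among the transgelins, Tagln2 was the main transcript in +/+ NSCs and Tagln3 the main one in Chd5-/- NSCs. Tagln3 measured 3.25 and 1.96 TPM in +/+ NSCs and 98.22 and 135.32 TPM in Chd5-/- NSCs. Both mutant samples were far above both controls, and the lowest mutant value was 30.2 times the highest control value. The difference of mean log2(TPM + 1) was 5.04, while samples of the same genotype differed by 0.52 (+/+) and 0.46 (Chd5-/-) on that scale. The median of all rows tested was itself 0.34 higher in Chd5-/-, and relative to it the difference of Tagln3 was 4.70. Measured against the whole table, Tagln3 stood at or above 44.5% and 41.2% of rows in +/+ NSCs and 90.9% and 93.7% in Chd5-/- NSCs. In RNA of whole cultures, a change in the number of cells of a type and a change in RNA per cell cannot be told apart.

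**Figure D1:**
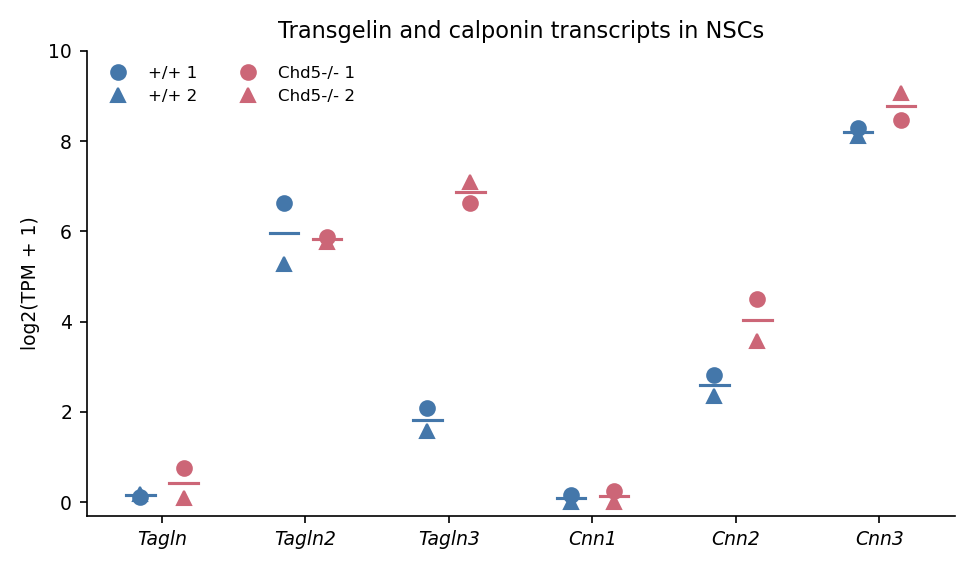
Level of the 6 family members as log2(TPM + 1) in each of the 4 samples (circles replicate 1, triangles replicate 2, blue +/+, red Chd5-/-), with a bar at the mean of each genotype. Tagln3 lay at 3.25 and 1.96 TPM in controls and at 98.22 and 135.32 TPM in mutants, Tagln2 overlapped between genotypes, and Tagln and Cnn1 stayed below 1 TPM.

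Tagln2 measured 98.49 and 37.69 TPM in +/+ NSCs and 57.70 and 53.51 TPM in Chd5-/- NSCs. The mutants lay between the 2 controls, which differed from each other by 1.36 on the log2 scale. With limma over all rows, the difference was -0.13 (SE 0.47, 95% interval -1.33 to 1.06, adjusted p = 0.879), an interval that spans both directions. Tagln, the smooth muscle member, measured 0.09 and 0.13 TPM in +/+ NSCs and 0.70 and 0.07 TPM in Chd5-/- NSCs. Its genotypes overlapped, its highest value was in Chd5-/- replicate 1, and it was too low to test.

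Because a ratio within a sample does not depend on the scaling between samples, the share of Tagln3 in the summed TPM of the 3 transgelins was also taken. It was 3.19% and 4.93% in +/+ NSCs and 62.7% and 71.6% in Chd5-/- NSCs, or 4.06% ± 1.23 and 67.2% ± 6.31 (SD, n = 2 each). The ratio of Tagln3 to Tagln2 was 0.0330 and 0.0520 in +/+ NSCs and 1.70 and 2.53 in Chd5-/- NSCs. Tagln2 was thus the larger of the pair in both controls and the smaller in both mutants. The summed transgelin level was 101.83 and 39.78 TPM in +/+ NSCs and 156.62 and 188.90 TPM in Chd5-/- NSCs. These shares contain the difference by which Tagln3 was chosen and carry no test.

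**Figure D2:**
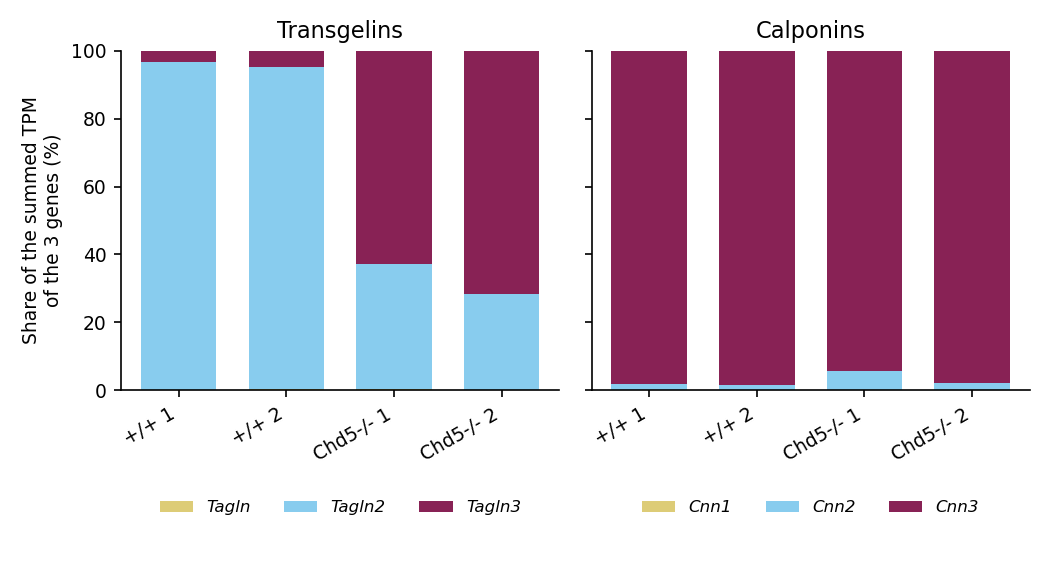
Share of each gene, in percent, in the summed TPM of the 3 transgelins (left) and of the 3 calponins (right), 1 stacked bar per sample. Tagln3 made up 3.19% and 4.93% of transgelin TPM in +/+ NSCs and 62.7% and 71.6% in Chd5-/- NSCs, whereas Cnn3 made up at least 94.2% of calponin TPM in every sample.

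Among the calponins, Cnn3 was by far the most abundant in every sample and Cnn2 differed more between genotypes. Cnn2 measured 6.06 and 4.14 TPM in +/+ NSCs and 21.51 and 10.87 TPM in Chd5-/- NSCs. Both mutants were above both controls, with Chd5-/- replicate 1 the highest. The difference was 1.44 (SE 0.41, 95% interval 0.40 to 2.48), 1.10 above the median of all rows. It had an unadjusted p of 0.0161 and an adjusted p of 0.143 with limma, and so did not pass the test. Cnn3 measured 313.67 and 276.22 TPM in +/+ NSCs and 354.73 and 533.99 TPM in Chd5-/- NSCs. Its mutants were also above its controls, with a difference of 0.56 (SE 0.28, 95% interval -0.16 to 1.28, adjusted p = 0.290 with limma), 0.22 above the median of all rows. Cnn1, the smooth muscle calponin, measured 0.12 and 0 TPM in +/+ NSCs and 0.19 and 0 TPM in Chd5-/- NSCs, and was too low to test.

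Of the 3 paralogs tested, 0 passed an adjusted p of 0.05 with limma, as did 0.0557% of all rows, 4 of which were higher in Chd5-/- (0.0318%) and 3 lower (0.0239%). At an unadjusted p under 0.05, 1 of 3 was higher and 0 were lower, against 21.9% and 2.27% of all rows. That split of all rows, 2748 higher and 285 lower, became 1508 and 1311 with median-of-ratios scaling. Both mutants were above both controls for 2 of 3, against 46.3% of all rows, and below for 0 of 3, against 13.0%. An exact permutation test of 2 against 2 samples cannot go below p = 0.333.

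The estimates for Cnn2 and Cnn3 depended on the processing. With trends in GC content and transcript length removed, the Cnn2 difference was 0.72 and its adjusted p 0.491 with limma. Without Chd5-/- replicate 2 it was 1.90 with an adjusted p of 0.0445, in a fit that called 914 rows higher and 172 lower. With median-of-ratios scaling the Cnn3 difference was 0.19. For Tagln2, leaving out +/+ replicate 1 gave 0.55 and leaving out +/+ replicate 2 gave -0.81, so its sign rests on which control is kept. Tagln3 stayed between 3.99 and 5.46 in all alternatives.

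**Figure D3:**
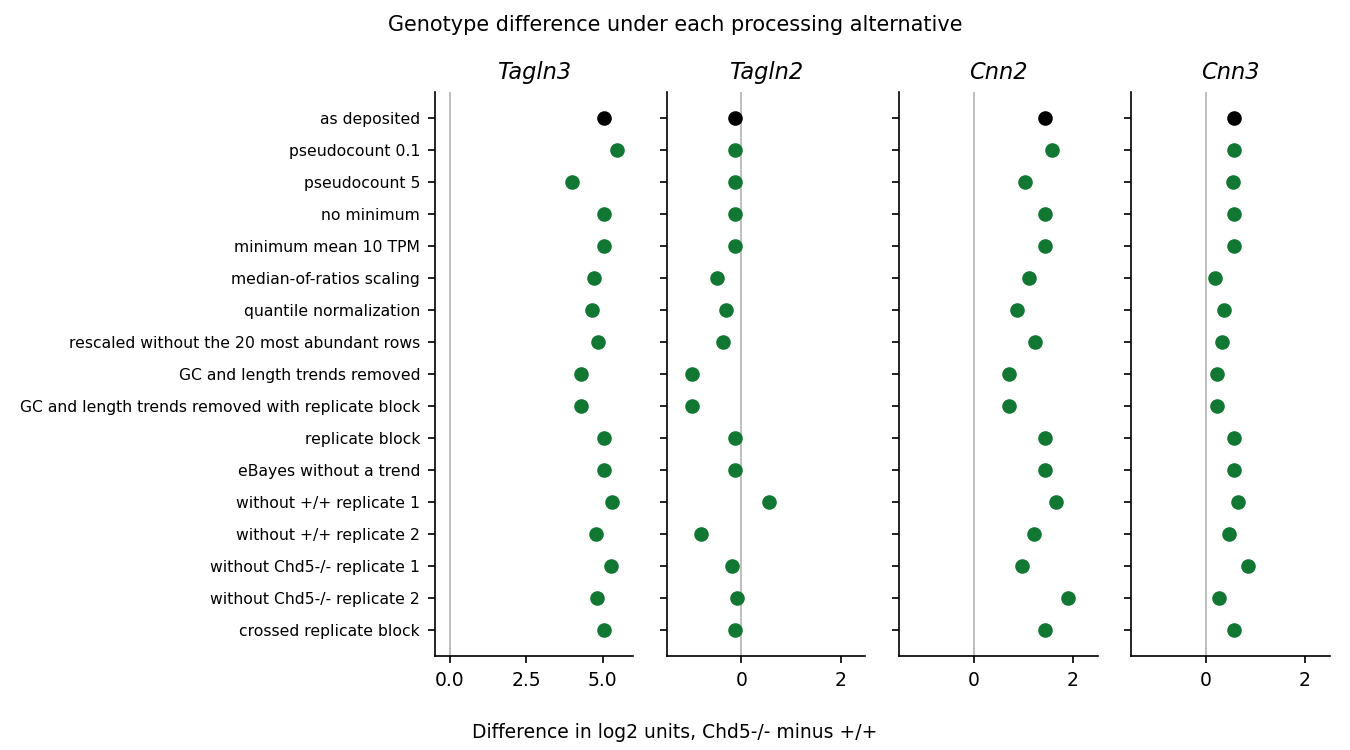
Difference between genotypes (Chd5-/- minus +/+, log2 units) of the 4 members above the minimum level, 1 row per processing setting with the values as deposited in black on top; the horizontal axis of Tagln3 spans a wider range than the other 3. Tagln3 lies between 3.99 and 5.46, Cnn2 between 0.72 and 1.90, Cnn3 between 0.19 and 0.86, and Tagln2 falls on both sides of 0.

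Within a sample, TPM can be compared between genes. In both +/+ samples the order from high to low was Cnn3, Tagln2, Cnn2 and Tagln3. In both Chd5-/- samples it was Cnn3, Tagln3, Tagln2 and Cnn2. The samples of adjacent genes in these orders did not overlap within a genotype, the closest being the lower Cnn2 value of 4.14 TPM above the higher Tagln3 value of 3.25 TPM in +/+. Tagln and Cnn1 came last and overlapped with each other. Cnn3 stood at or above 97.5% to 98.7% of all rows in the 4 samples, Tagln2 at or above 80.6% to 91.4%, and Cnn2 at or above 48.9% to 66.6%. The ratio of Cnn3 to Cnn2 was 51.8 and 66.7 in +/+ NSCs and 16.5 and 49.1 in Chd5-/- NSCs. The 6 genes together summed to 421.68 and 320.14 TPM in +/+ NSCs and to 533.05 and 733.76 TPM in Chd5-/- NSCs, of which Tagln3 was 0.771%, 0.612%, 18.4% and 18.4%.

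The rows whose profile over the 4 samples was nearest to that of Tagln3 were Bmp3, Mir7-1, Fam65a, Snora43 and Tmem132b, by Euclidean distance of row-centred log2(TPM + 1). Bmp3, a bone morphogenetic protein ligand, was the nearest at a distance of 1.10, with 0.13 and 0.82 TPM in +/+ NSCs and 29.43 and 29.91 TPM in Chd5-/- NSCs. Fam65a measured 6.51, 4.48, 86.50 and 86.62 TPM in the same order at a distance of 1.31. Tmem132b, a neural transmembrane protein, measured 0.49, 0.48, 32.89 and 17.23 TPM at a distance of 1.41. These 3 genes were low in both controls and high in both mutants, as the measure requires. The microRNA gene Mir7-1 and the small nucleolar RNA Snora43 were listed at 0 in both +/+ samples, with 73.15 and 72.06 TPM and with 23.80 and 11.72 TPM in Chd5-/- NSCs. No other family member was among these 5 rows.

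The genes beside Tagln3 on chromosome 16 were read beside it. None of them differed by as much, but Tagln3 was chosen by its difference, so that comparison carries no test. Of the 6 nearest annotated genes with a row, 3 on each side, 5 were tested, 4 had both mutants above both controls (46.3% of all rows), and 3 were higher at an unadjusted p under 0.05 (21.9%). Abhd10, a mitochondrial hydrolase 5.19 kb away, measured 36.60, 29.82, 41.21 and 43.35 TPM (+/+ 1, +/+ 2, Chd5-/- 1, Chd5-/- 2), a difference of 0.35, close to the median of all rows. Tmprss7, a membrane serine protease 12.7 kb away, measured 0.53, 0.37, 1.90 and 2.27 TPM, a difference of 1.09 (adjusted p = 0.163 with limma). Phldb2, which helps to anchor microtubules at the cell cortex and lies 21.7 kb away, measured 14.72, 16.67, 167.47 and 30.23 TPM, a difference of 2.12 (adjusted p = 0.190). Chd5-/- replicate 1 stood apart from the other 3 samples. Cd200, a membrane glycoprotein that restrains myeloid cells, lies 302 kb away and measured 10.10, 6.93, 65.01 and 28.76 TPM, a difference of 2.24 (adjusted p = 0.120). BC016579 was at or below 0.20 TPM, and Plcxd2, 235 kb away, overlapped between genotypes with a difference of 0.45.

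Around Cnn2, all 5 neighbours tested had both mutants above both controls, and 4 of them had an unadjusted p under 0.05, beside 46.3% and 21.9% of all rows. They were Polr2e, a subunit shared by the nuclear RNA polymerases (difference 1.93), Gpx4, which reduces lipid peroxides (1.49), Tmem259 (1.37) and Abca7, a lipid transporter (1.30), each with an adjusted p between 0.120 and 0.129 with limma. The fifth, Wdr18, differed by 0.91. Cnn2, with a difference of 1.44, lay inside this range. Around Cnn3, 2 of 5 neighbours tested had both mutants higher, and F3, the tissue factor that starts coagulation, was lower at 160.76, 215.72, 47.09 and 74.78 TPM (difference -1.63, adjusted p = 0.120 with limma). Around Tagln2 only Pigm and Kcnj10 were tested, and both were lower, with differences of -0.62 and -2.19. Over all rows 13.0% had both mutants below both controls. Kcnj10 measured 93.55, 14.89, 4.04 and 13.33 TPM, so +/+ replicate 1 stood far above the rest and +/+ replicate 2 lay close to Chd5-/- replicate 2. The unadjusted p with limma was 0.0465 for Pigm and 0.0676 for Kcnj10, and neither passed the adjusted test. Of the neighbours of Tagln 4 of 6, and of those of Cnn1 3 of 4, had both mutants higher, which, like 2 of 5 for Cnn3, is to be read beside the 46.3% of all rows. The former include Pcsk7, which overlaps Tagln on the opposite strand.

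**Figure D4:**
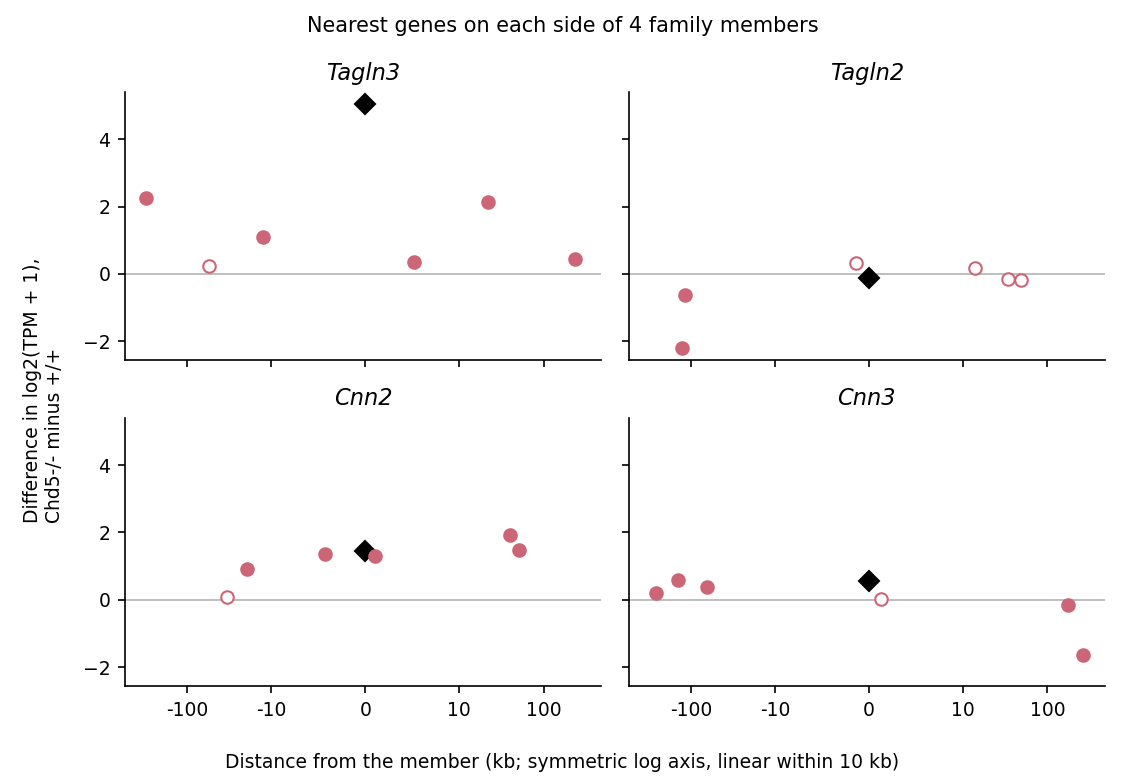
Difference in log2(TPM + 1), Chd5-/- minus +/+, of up to 3 annotated genes on each side of Tagln3, Tagln2, Cnn2 and Cnn3 against distance in kb (symmetric log axis, linear within 10 kb); black diamonds are the family members, filled circles neighbours tested and open circles neighbours under 1 TPM. Tagln3, chosen by its difference, stands at 5.04 above its neighbours, of which Cd200 at 2.24 is the highest, while Cnn2 at 1.44 lies among its own.

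Several smooth muscle cytoskeletal genes were higher in Chd5-/- NSCs, although the defining smooth muscle genes were near 0. Of 16 such genes 10 were tested, 0 passed an adjusted p of 0.05 with limma, and 5 were higher and 0 lower at an unadjusted p under 0.05, against 21.9% and 2.27% of all rows. Both mutants were above both controls for 6 of the 10, against 46.3% of all rows, and the median difference was 1.14, against 0.34. The 5 were Myl9, a regulatory myosin light chain, Csrp2, a LIM protein of smooth muscle, Smtn, the actin-binding smoothelin, Cald1, the actomyosin inhibitor caldesmon, and Vcl, the adhesion protein vinculin. Myl9 had the largest difference, 2.07, with 0.97 and 0.87 TPM in +/+ NSCs and 7.66 and 6.48 TPM in Chd5-/- NSCs (adjusted p = 0.120). Cald1, the most abundant of the list, measured 90.77 and 157.11 TPM in +/+ NSCs and 448.22 and 248.22 TPM in Chd5-/- NSCs, a difference of 1.47 (adjusted p = 0.139). Csrp1, next in level, overlapped between genotypes at 114.53, 75.65, 99.85 and 225.25 TPM, and Tpm1, a tropomyosin, differed least, by 0.11. Acta2, smooth muscle actin, reached 9.55 TPM in Chd5-/- replicate 1 and at most 0.30 TPM elsewhere, and Myh11, smooth muscle myosin, was at most 0.11 TPM. The count of 5 became 3 with median-of-ratios scaling, against 1508 of all 12576 rows. Quantile normalization gave 4, against 1103, and rescaling without the 20 most abundant rows gave 4, against 1863. Removal of GC and length trends gave 3, against 641 of 12110 rows. The replicate block on top of that removal gave 2, against 441. The higher rows of the whole table thus also became fewer, from 2748 in the deposited values. Under the scalings and corrections the median difference of the list was between 0.62 and 0.91. That of all rows was then between -0.054 and 0.13. When single samples were left out, these medians were 1.03 to 1.44 and 0.26 to 0.41.

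Regulators of smooth muscle genes lay close to the table as a whole in their median difference. Of 18 genes for serum response factor, its cofactors and TGF-beta signalling 17 were tested, and 0 passed the adjusted test. At an unadjusted p under 0.05 with limma there were 0, against 21.9% higher and 2.27% lower over all rows. Their median difference was 0.34, as for all rows. With median-of-ratios scaling it was -0.016, after removal of GC and length trends -0.16 and under quantile normalization -0.068, where the median of all rows also moved, to 0.0052, -0.029 and -0.054. Srf measured 1.84, 1.30, 3.62 and 2.76 TPM, a difference of 0.71 (adjusted p = 0.273). Tgfb1 had the largest difference, 0.90, and the kinase Rock1 the lowest, -0.38. The most abundant, Rhoa and Rock2, overlapped between genotypes, with differences of 0.11 and 0.35.

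Other genes with calponin homology domains were measured in 49 rows, of which 42 were tested. With limma 0 passed the adjusted test, 13 were higher and 0 lower at an unadjusted p under 0.05, both mutants were above both controls for 22 and below for 3, and the median difference was 0.43. Over all rows these shares were 21.9% higher, 2.27% lower, 46.3% above and 13.0% below, so 22 of 42 lay near that of the table. Sptb, an erythroid and brain spectrin, had the largest difference, with 0.03 and 0.12 TPM in +/+ NSCs and 5.85 and 2.54 TPM in Chd5-/- NSCs (adjusted p = 0.120). Mical1, which oxidises actin, differed by 2.05, and the actin crosslinkers Flna and Actn4 differed by 1.15 and 0.94. Flna, filamin A, measured 21.43 and 17.38 TPM in +/+ NSCs and 40.84 and 47.72 TPM in Chd5-/- NSCs. The most abundant of the list, Dmd (dystrophin) and Pls3 (plastin), overlapped between genotypes, and Limch1 had the lowest difference, -0.74. The counts became 7 higher and 3 lower with median-of-ratios scaling, and 6 and 2 with quantile normalization. They were 7 and 2 when rescaled without the 20 most abundant rows, and 4 and 4 after GC and length trends were removed. Over all rows the counts moved too. In the same order they were 1508 and 1311, 1103 and 1024, and 1863 and 820 of 12576, and 641 and 727 of 12110. With the replicate block the higher rows of the list numbered 7, against 2111 of all 12576 rows. The median difference of the list was 0.38 without +/+ replicate 1 and 0.42 without +/+ replicate 2, against 0.41 and 0.26 for all rows.

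**Figure D5:**
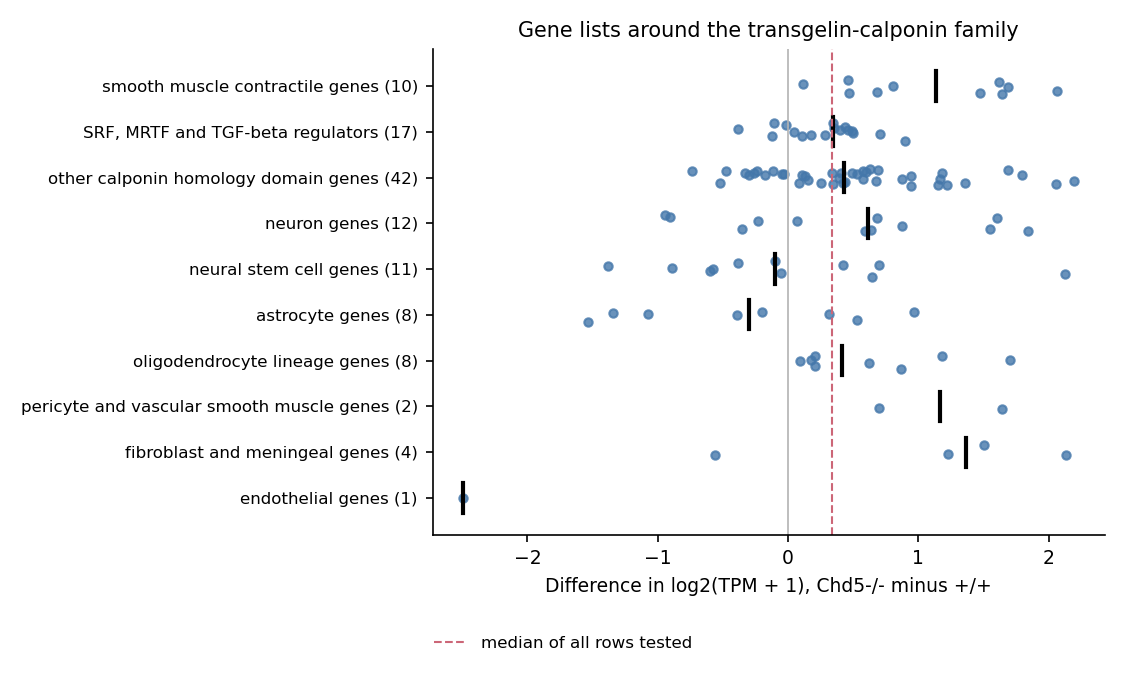
Difference in log2(TPM + 1), Chd5-/- minus +/+, of every tested row (points) of 10 gene lists, with a black bar at the median of each list, the number of rows in brackets, a grey line at 0 and a dashed line at the median of all rows tested, 0.34. The smooth muscle list had a median of 1.14, the other calponin homology domain genes 0.43 and the neural stem cell genes -0.10.

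Tagln3 is known from neurons, so neuronal genes were read beside it. Of 23 rows for 22 neuron genes 12 were tested, 0 passed the adjusted test with limma, and 3 were higher and 2 lower at an unadjusted p under 0.05, against 21.9% and 2.27% of all rows. The median difference was 0.61, against 0.34 for all rows, and the higher count lay near the share of the table. The 3 higher rows were Gap43, a growth cone protein, a row of Dpysl3, and Syt1, the synaptic calcium sensor. That Dpysl3 row differed by 1.55. The other row of Dpysl3, which was more abundant, differed by 0.59 (unadjusted p = 0.0724 with limma). Gap43 measured 47.73 and 28.03 TPM in +/+ NSCs and 147.89 and 120.73 TPM in Chd5-/- NSCs, a difference of 1.84 (adjusted p = 0.120). The RNA-binding protein gene Elavl3 and the transcription factor gene Sox11 were the 2 lower ones, with differences of -0.94 and -0.90. Map2, the most abundant, overlapped between genotypes at 502.92, 515.77, 365.59 and 784.89 TPM. Of the markers that define neurons, Tubb3 was at 0.33, 0.29, 0.51 and 2.77 TPM, Dcx at most 2.37 TPM and Rbfox3 at most 0.07 TPM. The summed TPM of the list was 811.22 and 716.58 in +/+ NSCs and 850.37 and 1218.98 in Chd5-/- NSCs, and its part in the level of Tagln3 was not tested.

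Markers of the mesenchymal cells that make Tagln and Cnn1 were low. Of 9 rows for pericytes and vascular smooth muscle 2 were tested, with 0 at an unadjusted p under 0.05 with limma. Over all rows 21.9% were higher and 2.27% lower at that level. The list summed to 5.51 and 6.70 TPM in +/+ NSCs and 18.25 and 13.07 TPM in Chd5-/- NSCs. Notch3 made up most of it except in Chd5-/- replicate 1, where Acta2 was the largest part, and Pdgfrb was at most 0.08 TPM. Of 8 fibroblast and meningeal genes 4 were tested. Twist1 alone was higher at an unadjusted p under 0.05 (difference 2.13, adjusted p = 0.120 with limma), a count near the 21.9% of all rows. That list summed to 20.29 and 17.85 TPM in +/+ NSCs and 41.70 and 10.86 TPM in Chd5-/- NSCs, most of it Foxc1. The collagen gene Col3a1 and decorin (Dcn) reached 7.41 and 4.17 TPM in Chd5-/- replicate 1 and at most 0.06 TPM in the other samples, and Col1a1 was at most 0.07 TPM. This is also the mutant in which Tagln, Acta2 and Cnn2 were highest and Tagln3 was the lower of the 2, and the part of these cells in those values was not tested.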

How the data were processed

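RNA-seq of 4 NSC cultures was used, 2 +/+ and 2 Chd5-/-, grouped by their titles. The values, deposited by the authors as TPM, stand in 1 table with a row per gene name, and the submitters' processing notes name Bowtie2 2.2.3, RSEM 1.2.20 and mm10. The gene annotation, the strand setting and the test of the study are not given in the sources used here. The column totals were 1000015 to 1000031 TPM, so an increase in abundant rows lowers the others.

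Rows whose mean reached 1 TPM were compared on log2(TPM + 1) with limma 3.58.1 in R 4.3.3 (eBayes with a trend, two-sided, genotype as the only term). Adjusted p-values are Benjamini-Hochberg over the 12576 rows tested. Differences are on the log2(TPM + 1) scale, which understates the change of low genes. The code was tested on simulated data.

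Genes named were drawn from the 6 members, Chd5, the 5 rows nearest to Tagln3, up to 3 neighbours on each side, and from each of 11 gene lists (163 genes) the 2 most abundant rows and those with the highest and lowest difference. Other genes were named after their values were seen, and some genes are not reported here. The members and lists were chosen with earlier results of these data known.

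Gene positions, coding sequences and transcript GC content and length came from GENCODE M21 (GRCm38) and promoters from RefSeq (GRCm38.p6, 5 of 6 members matched), which may differ from the annotation of the authors. Other settings tried were pseudocounts of 0.1 and 5, no minimum, a minimum of 10 TPM, quantile normalization, scaling by median of ratios or to the total without the 20 most abundant rows, loess removal of GC and length trends (span 0.5, 96.3% of rows with both), a replicate block, eBayes without a trend, and leaving out each sample. Python 3.11.15 was used with Biopython 1.88, numpy 2.4.6, pandas 2.3.3 and, for figures, matplotlib 3.10.9.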

Additional observations from a re-analysis of the deposited data

How the results depend on the processing

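The TPM scale, 2 samples per genotype and the unstated gene annotation limit these values, and depth cannot be assessed. The difference of Tagln3 was 5.46 with a pseudocount of 0.1, 3.99 with a pseudocount of 5, 4.66 after quantile normalization and 4.29 once GC and length trends were taken out, whether the replicate block was in the fit or not, and leaving out each sample gave 4.77 to 5.30. With a pseudocount of 0.1, Tagln was at 0.82 and Cnn1 at 0.20, and leaving out samples gave -0.05 to 0.62 and -0.08 to 0.17. Tagln2 turned to 0.55 without +/+ replicate 1 and ranged from -0.81 to 0.55 when each sample was left out (adjusted p 0.454 to 0.932 over all alternatives). Cnn2 passed the adjusted test without Chd5-/- replicate 2 (1.90, adjusted p = 0.0445), and its range when samples were left out was 0.98 to 1.90 (adjusted p 0.0445 to 0.760 over all alternatives). Cnn3 kept its direction and missed the adjusted test in 16 of 16 alternatives, at 0.19 to 0.86 (adjusted p 0.0582 to 0.849), and 0.27 to 0.86 when samples were left out. The cause of these shifts was not tested. A fit that leaves a genotype with 1 sample assumes that it varies like the other genotype.

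Over all gene lists, 21 of 113 rows were higher and 4 lower at an unadjusted p under 0.05, against 21.9% and 2.27% of all rows tested. The higher rows numbered 7 with a minimum of 10 TPM, 12 with median-of-ratios scaling, 12 with quantile normalization, 11 with GC and length trends removed, 8 when the block was added to that, and 10 to 34 when samples were left out. The lower rows numbered 2, 10, 8, 9 and 10 under the same settings, and 7 when rescaled without the 20 most abundant rows. Over all rows the lower ones were 246 of 8199, 1311 and 1024 of 12576, 727 and 455 of 12110, and 820 of 12576. Leaving out single samples also moved both counts. The share of Tagln3 among transgelins was 3.19% to 4.93% in +/+ and 62.7% to 71.6% in Chd5-/- when samples were left out.

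No pairing by replicate number was evident, as the deviations of same-numbered samples correlated at r = -0.152 across rows. A single correlation cannot exclude a pairing. With the replicate number as a block, the estimates were the same, the adjusted p was 0.217 for Cnn2, 0.405 for Cnn3 and 0.867 for Tagln2, and 0 of all rows passed the adjusted test, against 7 without it. A crossed pairing, added after the data were seen, gave 5 calls over all rows.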

Other observations

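Of 11 neural stem cell genes, 0 were higher and 1 lower at an unadjusted p under 0.05 with limma (0 after adjustment). Both mutants were below both controls for 4 and above them for 1, Egfr. It measured 138.93 and 129.19 TPM in +/+ NSCs and 147.21 and 324.03 TPM in Chd5-/- NSCs, a difference of 0.70. Over all rows 21.9% were higher, 2.27% lower, 13.0% below and 46.3% above. The lower rows numbered 3 with median-of-ratios scaling, against 1311 of all 12576 rows. The median difference of the list was -0.10, and it was 0.12 without Chd5-/- replicate 1 and -1.09 without Chd5-/- replicate 2. For all rows it was 0.34, 0.35 and 0.33, so the direction of the list depended on which mutant was kept. The lower gene in the deposited values was the glutamate transporter Slc1a3, at 1871.05 and 1620.40 TPM in +/+ NSCs and 442.25 and 1005.58 TPM in Chd5-/- NSCs, a difference of -1.38 (adjusted p = 0.162). Fabp7, the radial glial fatty acid binding protein and the most abundant of the list, measured 5891.59, 4315.73, 1938.77 and 3822.43 TPM. Vim, the intermediate filament vimentin, measured 1354.30, 1502.02, 1067.86 and 1118.03 TPM, and Prom1 reached 45.27 TPM in Chd5-/- replicate 1 and at most 4.15 TPM elsewhere. Of 8 astrocyte genes 0 had an unadjusted p under 0.05, and the genotypes overlapped for all 8. The most abundant were the gap junction gene Gja1 (179.69, 385.61, 332.51 and 434.30 TPM) and the glutamate transporter gene Slc1a2 (326.56, 349.49, 70.45 and 361.14 TPM). The water channel gene Aqp4 had the highest difference, 0.97, and the glycolytic gene Aldoc the lowest, -1.54, with 22.56 TPM in Chd5-/- replicate 1 and 320.88 TPM in Chd5-/- replicate 2. Of 8 oligodendrocyte lineage genes 0 had an unadjusted p under 0.05. The lineage factors Olig1 and Olig2 were the most abundant, with differences of 0.09 and 0.18, and Gpr17, a marker of differentiating precursors, had the highest, 1.71, with 0.58 and 76.45 TPM in the 2 mutants. Of 4 endothelial rows Flt1 was tested and was lower in both mutants, at 4.29 and 19.45 TPM against 1.02 and 0.69 TPM (adjusted p = 0.134 with limma). Of 8 microglial genes 2 had a row, and neither exceeded 0.45 TPM.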
